A study of Sus scrofa with 5 samples.

Results

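The miRNAs of exosomes from pig bile were compared with those of 4 other body fluids: serum, plasma, semen and urine. Every miRNA name with at least 10 read counts in the bile library was taken as a bile miRNA. This gave 179 of the 237 names that had counts in any fluid (75.5%), out of 411 names in the deposited tables. All 5 libraries came from pigs of the Rongchang breed at 180 days after birth, and the labels of the groups differ only in the fluid. No treatment or genotype is named. Each fluid was represented by 1 library, and the number of animals behind it is not stated in the labels. The fluids were described by how their miRNA profiles compare, and with 1 library per fluid no difference below has a replicate check or a p-value. The intervals given are 95% intervals for counting error only and hold no variation between animals or libraries. Reads amplified by PCR without molecular identifiers are not independent molecules, so the intervals can be too narrow even for counting error.

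Bile is secreted by hepatocytes, modified by the cholangiocytes that line the bile ducts, and stored in the gallbladder, an epithelial sac with a wall of smooth muscle and connective tissue. Exosomes are small membrane vesicles that cells release into body fluids, and they carry miRNAs, short RNAs that bind partly complementary sites in messenger RNAs and lower their translation and stability. Bases near the 5′ end of a miRNA, its seed, decide most of this pairing, so miRNAs of the same seed family share many targets. Several miRNAs are known as marks of a cell type: miR-122 of hepatocytes, miR-143 and miR-145 of smooth muscle, miR-199a of fibroblasts and stellate cells, and miR-451 of red blood cells. In exosome RNA, more vesicles from a cell type and more copies of a miRNA per vesicle cannot be told apart.

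The bile library held 1673239 miRNA counts. The deepest other library was that of semen, with 2284926, followed by plasma with 1153755, serum with 473168 and urine with 26522. No listed count was below 10 in any library, so a name listed at 0 stands for 0 to 9 reads. In the shallow urine library 10 counts correspond to 377 CPM (counts per 1000000 miRNA counts of the library), whereas in bile they correspond to 5.98 CPM. A ratio against a name listed at 0 was therefore taken against 10 counts and is a lower bound, written "at least". In plasma miR-378 and miR-320 alone took 41.4% and 25.6% of the counts, which lowers the share of all other names there. Ratios depend on the total used. Besides the miRNA sum they were computed with edgeR's TMM library sizes and DESeq2's size factors, which assume that most names are unchanged, with totals that leave out the top miRNA, and from the authors' RPM (reads per 1000000 reads of a larger library total).

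A few miRNAs made up most of bile. The 4 most abundant names, each above 100000 counts, held 62.8% of the library, the first 10 held 84.4% and the first 20 held 93.4%. Another 11 names had 10000 to 99999 counts, with 28.2% of the library, and 37 had 1000 to 9999, with 7.54%. A further 63 had 100 to 999 counts, with 1.33%, and 64 had 10 to 99, with 0.139%. Of the 179 names, 67 were listed in all 5 fluids, and these carried 98.3% of the bile counts. Names listed in every fluid thus accounted for nearly all bile reads.

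The most abundant was miR-148a-3p, a miRNA rich in hepatocytes and in many secretions, with 32.1% of bile counts (32.0 to 32.1). It held 18.1% in serum, 1.41% in plasma, 52.8% in semen and 16.6% in urine, so bile stood second to semen. The next, miR-192, which is known from liver, intestinal and kidney epithelium, held 13.7% of bile, 1.31% of serum, 0.380% of plasma, 0.0118% of semen and 1.40% of urine. Bile was the only library in which it passed 2%. The widely expressed, growth-associated miR-21 held 8.56% in bile, 2.63% in serum, 0.426% in plasma, 8.69% in semen and 4.54% in urine. Bile and semen had nearly the same share of it, and their order turned under TMM scaling.

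**Figure D1:**
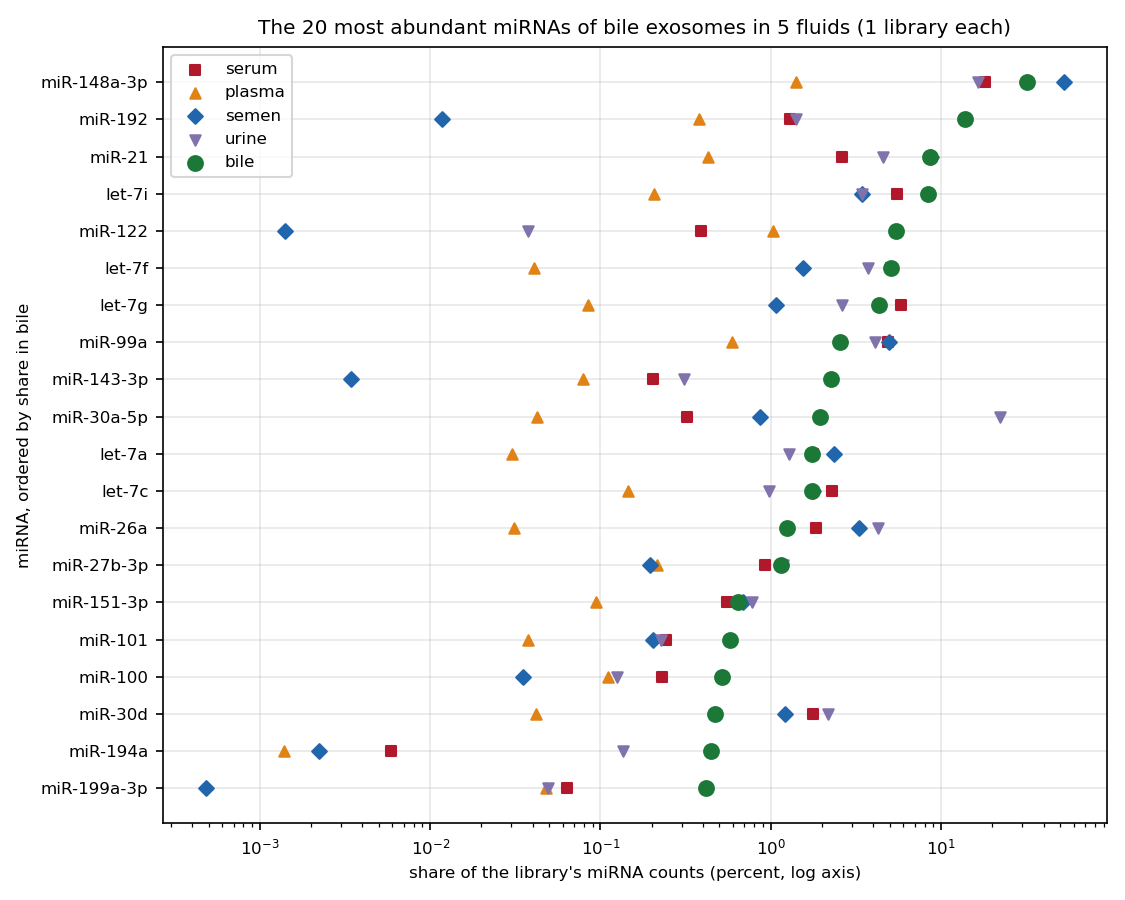
Share of each library's miRNA counts (percent, log axis) for the 20 most abundant bile miRNAs, with 1 point per fluid and library; a point hidden by another lies at the same share. The bile points of miR-192, miR-122, miR-143-3p, miR-194a and miR-199a-3p lie to the right of all other fluids (for miR-122 the order against plasma turns with DESeq2 size factors), whereas miR-148a-3p is highest in semen and miR-30a-5p in urine.

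Members of the let-7 family, which act in differentiation and repress growth genes, followed. The share of let-7i was 8.41% in bile, 5.49% in serum, 0.206% in plasma, 3.44% in semen and 3.45% in urine. That of let-7f was 5.11% in bile and 5.08% in serum, a ratio of 1.01 (0.992 to 1.02), with 3.72% in urine, 1.54% in semen and 0.0406% in plasma. Bile and serum could not be told apart for let-7f by these shares. For let-7g the bile share of 4.33% lay below the 5.83% of serum, and this order turned under TMM and DESeq2 scaling and in the authors' RPM. Below these came miR-99a (2.54% of bile), miR-143-3p (2.27%), miR-30a-5p (1.94%), let-7a and let-7c (1.76% each), miR-26a (1.25%), miR-27b-3p (1.15%) and miR-151-3p (0.646%). miR-30a-5p, an epithelial miRNA abundant in kidney, held 22.1% of the urine library, and its bile share was below that of urine by each scaling except the RPM.

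Of the 237 names with counts in any fluid, 9 were at least 2-fold higher in bile than in each of the other 4 fluids, or 3.80%. Those 9 held 23.7% of the bile counts. By the same rule 30 names were highest in serum, 21 in urine, 12 in plasma and 3 in semen. The 9 bile names were miR-192 at 9.83 times its next fluid, miR-143-3p at 7.34, miR-199a-3p at 6.53, miR-122 at 5.33, miR-194a at 3.28, miR-199b-3p at a minimum of 2.51, miR-101 at 2.38, miR-183 at 2.37 and miR-100 at 2.23. miR-192, miR-143-3p, miR-194a and miR-199b-3p, 4 of the 9, stayed at least 2-fold higher under every scaling tried. For miR-199b-3p this rests on bounds, since no other fluid listed it. Summed with miR-199a-3p, which has nearly or fully its sequence, it was 1.61 times plasma with DESeq2 size factors and so not stable. The order of miR-122 and miR-100 against plasma turned with DESeq2 size factors, and that of miR-100 also with TMM. Another 6 names were highest in bile without reaching 2-fold against every fluid. Of these, miR-98 was at 1.74 times its next fluid, let-7i at 1.53, miR-152 at 1.16 and let-7f at 1.01, and the order of miR-152 against plasma turned with DESeq2 size factors (0.941). miR-340 and miR-9843-3p were 2.02 and 2.04 times their level in semen, the next fluid that listed them. Urine listed both at 0, so there they were at least 1.58-fold and at least 1.09-fold higher. The intervals of these 2 bounds and of let-7f reached below 1. For 143 names another fluid was higher, and for 21 the floor of a fluid did not allow a verdict.

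Among the lists of known marks, the hepatocyte list held the largest share of bile, mostly through miRNAs that are not particular to hepatocytes. All 7 of the listed hepatocyte names with counts in any fluid were found in bile, beside 75.5% of all names with counts. Serum listed 6 of the 7, and miR-885-5p had counts through bile alone. Together the 7 held 51.7% of bile, against 19.8% in serum, 3.11% in plasma, 53.0% in semen and 18.2% in urine. Bile and semen were close, and their order turned under TMM scaling. In semen the sum was almost entirely miR-148a-3p. Of the 865771 counts of the list in bile, 536641 were miR-148a-3p and 229971 were miR-192, against 91481 of miR-122. The sum is therefore not a measure of hepatocyte origin. The members differed: of the 7, 5 were at least 2-fold higher in bile than in semen, beside 37.5% of all names listed in either. The 5 included miR-885-5p, which could only be higher, and the other 4 stayed so under every scaling. miR-148a-3p lay within 2-fold, and miR-148a-5p, with 145 counts in bile and 3692 in semen, was lower in bile under every scaling. miR-122, the classical hepatocyte miRNA, had 91481 counts in bile (5.47%), 1842 in serum (0.389%), 11836 in plasma (1.03%), 32 in semen (0.00140%) and 10 in urine (0.0377%). Its bile level was 14.0 times that of serum (13.4 to 14.7), 3904 times that of semen (2765 to 5708), 145 times that of urine (78.8 to 302) and 5.33 times that of plasma (5.23 to 5.43). The ratio to plasma alone was not stable: it was 1.03 with TMM library sizes and 0.804 with DESeq2 size factors. A further hepatocyte mark, miR-885-5p, was listed in bile alone, with 18 counts. Its 10.8 CPM lay below the floors of serum (21.1 CPM) and urine (377 CPM) and near that of plasma (8.67 CPM). Its absence from those libraries therefore does not set bile apart.

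miR-192 and miR-194a, neighbours in the pig genome that are transcribed together and are known from liver and intestinal epithelium, were both high in bile. miR-194a had 7450 counts in bile (0.445%), 28 in serum, 16 in plasma, 51 in semen and 36 in urine (0.136%). In the 4 other libraries it was close to the limit of listing, and its bile level was 75.2 times that of serum (52.0 to 113), 321 times that of plasma (198 to 562), 199 times that of semen and 3.28 times that of urine (2.37 to 4.69). For miR-192 the ratios were 10.5 to serum, 36.2 to plasma, 1167 to semen and 9.83 to urine. Both were higher in bile than in each fluid under every scaling tried. They belong to the hepatocyte list as well as to the enterohepatic list, which shares 3 of its 4 names with counts with the former and summed to 14.2% of bile, 4.26% of serum, 0.649% of plasma, 0.0140% of semen and 1.53% of urine.

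The second copy of this cluster did not follow. miR-215, which has almost the sequence of miR-192, had 476 counts in bile (0.0284%), 13939 in serum (2.95%) and 3091 in plasma (0.268%), and was listed at 0 in semen and urine. It was lower in bile than in serum and plasma under every scaling. Within bile, miR-192 had 483 times the counts of miR-215 (442 to 530), whereas the ratio was 0.443 in serum (0.430 to 0.457) and 1.42 in plasma (1.35 to 1.48). Such a ratio within 1 library does not depend on how libraries are scaled, although each miRNA is captured with its own efficiency and only the change of the ratio between fluids can be read. In semen and urine it was at least 26.9 and at least 37.1. The partner pair differed in the same direction from serum: miR-194a had 115 times the counts of miR-194b-5p in bile (89.8 to 149), against 0.778 in serum (0.457 to 1.31). In plasma the ratio was at least 1.60, a bound that does not settle the order. Counts were few, with 28 and 36 in serum and 16 and 0 in plasma. The sources used here do not say how reads matching both of a pair were assigned. The splits between miR-192 and miR-215 and between miR-194a and miR-194b-5p carry that uncertainty in all 5 fluids.

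Smooth muscle marks were also higher in bile. The list summed to 2.29% of bile, 0.227% of serum, 0.100% of plasma, 0.00341% of semen and 0.309% of urine, highest in bile under every scaling. Nearly all of it was miR-143-3p, with 37946 counts in bile, 960 in serum, 915 in plasma, 78 in semen and 82 in urine. The bile level of miR-143-3p was 11.2 times that of serum (10.5 to 11.9), 28.6 times that of plasma, 664 times that of semen (532 to 841) and 7.34 times that of urine (5.91 to 9.22). Its genomic neighbour miR-145 was not raised in the same way. miR-145-5p had 175 counts in bile (0.0105%), 101 in serum (0.0213%) and 86 in plasma (0.00745%), with none listed in semen and urine, and its order against serum turned in the RPM and that against plasma with TMM and DESeq2 size factors. The ratio of miR-143-3p to miR-145-5p was 217 in bile (187 to 253), 9.50 in serum (7.74 to 11.8) and 10.6 in plasma (8.52 to 13.4). The opposite arm, miR-145-3p, had 217 counts in bile, 12 in serum and 14 in plasma, 5.11 times the serum level and 10.7 times the plasma level.

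Fibroblast and stellate cell marks gave the same picture. All 5 names of the list were found in bile, beside 75.5% of all names with counts, and serum listed 4. The fifth, miR-199b-3p, had counts through bile alone, so its presence there was fixed by the choice of names. The sum of 0.578% in bile compared with 0.0898% in serum, 0.0535% in plasma, 0.000481% in semen and 0.0490% in urine. It was again highest in bile under every scaling. miR-199a-3p had 6954 counts in bile, 301 in serum, 552 in plasma, 11 in semen and 13 in urine. It was 6.53 times as high as in serum (5.82 to 7.36) and 8.69 times as high as in plasma, and the latter ratio was 1.31 with DESeq2 size factors. miR-199b-3p, whose mature sequence is nearly or fully that of miR-199a-3p, had 1584 counts in bile and was listed at 0 elsewhere. At the bile proportion of 22.8 miR-199b-3p counts per 100 miR-199a-3p counts, serum would hold 68.6 and plasma 126, both above the listing limit of 10. The bile table also writes its zeros in another number format than the other 4 tables. Whether reads of this pair were counted differently in bile was not tested. The 5p arms from these genes had 604 counts (miR-199a-5p) and 378 counts (miR-199b-5p) in bile, against 18 and 10 in serum, 65 and 0 in plasma, and 0 in semen and urine. miR-214, a neighbour of miR-199a, had 153 counts in bile and 96 in serum, a lower share in bile that turned in the RPM.

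**Figure D2:**
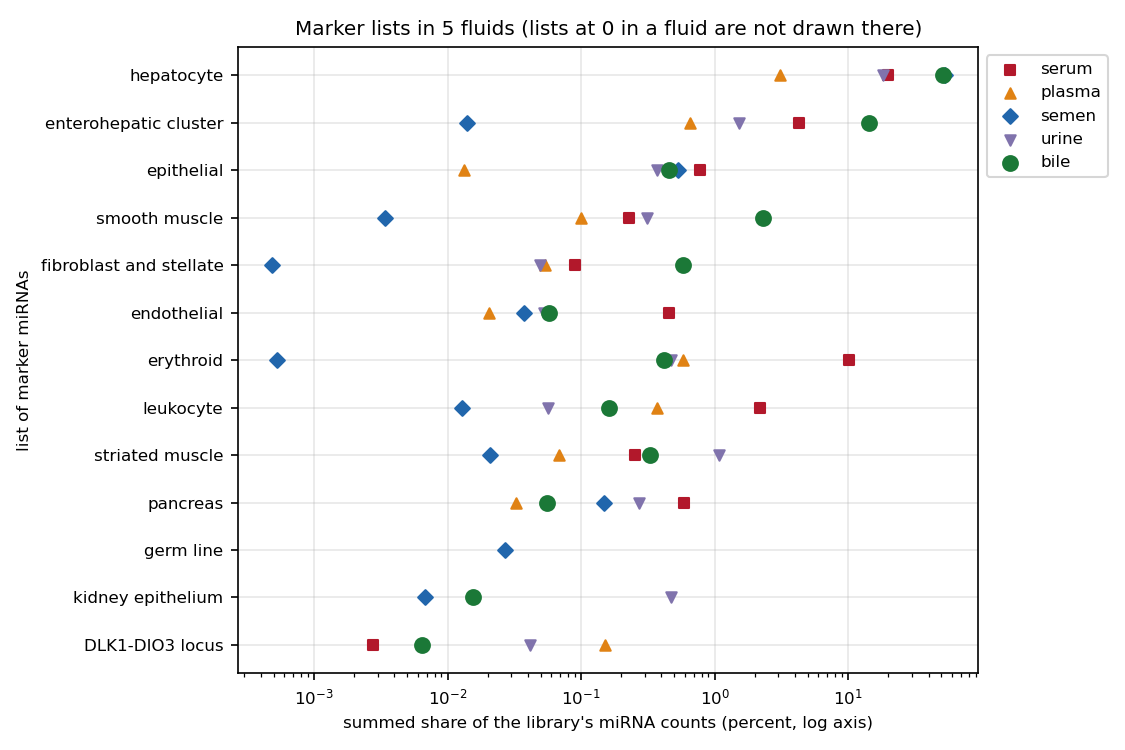
Summed share of the library's miRNA counts (percent, log axis) for 13 lists of marker miRNAs, with 1 point per fluid and library. Bile lies highest for the enterohepatic cluster, smooth muscle and the fibroblast and stellate list, and serum lies highest for the erythroid, leukocyte and endothelial lists, the leukocyte list being highest in plasma with TMM and DESeq2 scaling.

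The epithelial marks that could be measured were present in bile at a middle level. miR-200a, miR-200b, miR-200c, miR-141, miR-203a and miR-203b, also on the list, were not among the 411 names. Of the 5 names with counts, 4 were listed in bile, at 0.458% together, against 0.775% in serum, 0.0133% in plasma, 0.528% in semen and 0.373% in urine. Bile was above plasma and below semen by every scaling, and its order against serum turned with TMM and in the RPM. It was also above urine by every scaling, but urine listed only 2 of the 5 names, so its floor leaves that order unresolved. The sum hides different members. miR-183, from a cluster known in sensory and secretory epithelia, had 2545 counts in bile (0.152%), 304 in serum (0.0642%), 71 in plasma, 1304 in semen (0.0571%) and none listed in urine, and was highest in bile. Its neighbour miR-182 had 4187 counts in bile (0.250%), 3256 in serum (0.688%), 59 in plasma, 7991 in semen (0.350%) and 70 in urine (0.264%), and bile was below semen. miR-96-5p, the third of the cluster, had 600 counts in bile, 10 in serum and 923 in semen, so bile was 17.0 times serum (9.16 to 35.6) and slightly below semen. miR-429, of the miR-200 family that marks epithelia, had 338 counts in bile, 1763 in semen and 29 in urine. In CPM these were 202, 772 and 1093, so its share was higher in semen and urine. miR-205, a mark of squamous and basal epithelium, was listed at 0 in bile but had 99 counts in serum, 24 in plasma and 90 in semen.

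Marks of red blood cells were lower in bile than in serum and plasma. The erythroid list of miR-451, miR-144 and miR-486 summed to 0.417% of bile, 10.1% to 10.3% of serum by its interval, 0.583% of plasma, 0.000525% of semen and 0.468% of urine. It was below serum and plasma under every scaling, and its lower share than urine turned under each of the other scalings. miR-451, which matures by Argonaute cleavage in red cells, had 6896 bile counts, 40127 in serum, 4775 in plasma, 0 listed in semen and 124 in urine, so its bile share of 0.412% was close to the 0.414% of plasma. With TMM and DESeq2 size factors, which shift every bile-to-plasma ratio by -2.37 and -2.73 on the log2 scale, miR-451 was lower in bile. miR-486, known from red cells and muscle, was far lower: 66 counts in bile, 8179 in serum, 1909 in plasma and 12 in semen, with serum 438 times bile (344 to 567). The 2 defining erythroid miRNAs were thus in unequal proportion to each other in bile and serum. The erythroid sum in bile stood 24.5 times below that of serum and 1.40 times below that of plasma by share. The part of blood in the bile profile was not tested.

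Of the leukocyte list, miR-223 was not among the 411 names. All 7 leukocyte names with counts were listed in bile, as in serum and plasma, beside 75.5% of all names with counts. Together they held 0.163% of bile, against 2.13% to 2.21% in serum by its interval, 0.369% in plasma, 0.0127% in semen and 0.0566% in urine. The order, with bile below serum and plasma and above semen, was the same under each scaling. Bile was also above urine by each scaling, but urine listed only 1 of the 7 names, with 15 counts. The other 6 were at its floor and unresolved, so the order against urine is not settled. Of the 7, 6 were at least 2-fold lower in bile than in serum and 0 were higher, beside 56.0% lower among all names listed in bile or serum, and 5 stayed lower under every scaling. miR-146a-5p, a feedback regulator of inflammatory signalling, led with 1966 counts in bile, 5315 in serum, 3836 in plasma, 134 in semen and 15 in urine. The lymphocyte miRNA miR-342 had 48 counts in bile and 2970 in serum, a 219-fold lower level in bile (165 to 297), and miR-150, of mature lymphocytes, had 96 against 1008. miR-155-5p, of activated immune cells, had 168 in bile and 104 in serum, a lower share in bile that turned in the RPM. The endothelial miR-126-3p had 817 counts in bile (0.0488%) and 2103 in serum (0.444%), lower in bile under every scaling. Its order turned against plasma with TMM and DESeq2 size factors, against semen in the RPM and without the top miRNA, and against urine under each other scaling.

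Striated muscle marks split. Of 6 names with counts, 3 were listed in bile, at 0.328% together, against 0.256% in serum, 0.0688% in plasma, 0.0208% in semen and 1.08% in urine, and the order turned against plasma with TMM and DESeq2 size factors and against urine in the RPM. miR-1 had 4827 counts in bile (0.288%), 313 in serum (0.0661%), 42 in plasma, 34 in semen and 174 in urine (0.656%). It was 4.36 times the serum level and 79.2 times the plasma level (58.5 to 110), both above 1 under every scaling, and its order against urine turned in the RPM. miR-133a-3p, the neighbour of miR-1 and its partner in skeletal and heart muscle, was listed at 0 in bile, with 375 counts in serum and 135 in plasma. The ratio of miR-1 to miR-133a-3p was therefore at least 483 in bile, against 0.835 in serum (0.716 to 0.972) and 0.311 in plasma (0.215 to 0.443). miR-206, a skeletal muscle miRNA of the seed family of miR-1, had 172 counts in bile, 257 in serum, 437 in plasma and 113 in urine. In CPM these were 103, 543, 379 and 4261. The neighbour of miR-206, miR-133b, was again listed at 0 in bile, with 223 counts in serum and 129 in plasma. miR-499-5p, of heart and slow muscle, had 484 in bile, 41 in serum, 31 in plasma and 442 in semen.

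Marks of other organs were few, and miR-375, miR-211, miR-495, miR-34b and miR-449a of their lists were not among the 411 names. The endocrine and neuroendocrine miR-7 had 935 counts in bile (0.0559%), below the 0.593% of serum and the 0.149% of semen under every scaling. Its pancreatic companions miR-216 and miR-217 were listed at 0 in all 5 fluids. miR-204, of kidney and pigment epithelium, had 260 counts in bile (0.0155%), 0 listed in serum and plasma, 156 in semen and 125 in urine (0.471%). miR-127, from the imprinted DLK1-DIO3 locus, had 108 counts in bile, 13 in serum, 1708 in plasma and 11 in urine. In CPM these were 64.5, 27.5, 1480 and 415. Neither of the germ line names with counts, miR-34c and miR-202-5p, was listed in bile, and both were listed in semen alone.

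By seed family, bile was dominated by 3 groups. Families were formed from miRNA names, since no sequence was read. miR-148 with miR-152 held 32.5% of bile, let-7 with miR-98 held 21.7%, and miR-192 with miR-215 held 13.8%. miR-21 and miR-122 followed, each standing alone, with 8.56% and 5.47%. Within the first group miR-148a-3p was 98.8% in bile and 94.5% to 99.3% in the other fluids, so it led the group in all 5. The minor members varied: miR-148b-3p was 0.533% of the group in bile, 3.58% in serum and 3.21% in plasma, and miR-152 was 0.650% in bile, 2.26% in plasma and 0.103% in semen. The let-7 group held 20.7% of serum, 0.515% of plasma, 10.4% of semen and 12.3% of urine, and bile was highest under each scaling, by 1.05 over serum. Its makeup differed: let-7i was 38.8% of the group in bile, 26.5% in serum, 40.1% in plasma, 33.1% in semen and 28.0% in urine, and let-7a was 8.11% in bile but 22.6% in semen. In the 5p members of the miR-30 family, which held 2.61% of bile, miR-30a-5p was 74.3% and miR-30d 18.1%, whereas in serum they were 12.7% and 70.0%. In the miR-99 and miR-100 family, whose members target MTOR, miR-100 was 16.7% of the family in bile, 4.50% in serum, 15.7% in plasma, 0.690% in semen and 2.86% in urine. The miR-10 family, encoded in the HOX clusters, held 0.614% of bile against 10.3% of semen and 16.6% of urine. Bile was below semen under every scaling, and its order against urine turned only in the RPM.

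Against each fluid in turn, members were counted as different where the ratio of CPM was at least 2 in either direction and the floor allowed it. Against serum, 42 of the 179 bile names were at least 2-fold higher and 87 lower, 31 were within 2-fold and 19 could not be resolved. Over all 209 names listed in bile or serum, 20.1% were higher in bile and 56.0% lower. Names not listed in bile can only be lower, so every higher name is a bile name by the way the names were chosen. The median bile-to-serum ratio of the 150 shared names was -1.40 on the log2 scale. The split was 58 higher and 61 lower with TMM library sizes, 50 and 66 with DESeq2 size factors, 77 and 43 in the authors' RPM, and 68 and 52 relative to the median ratio. Under all of these, 42 names stayed higher and 43 lower.

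Furthest above serum were miR-194a, miR-199b-3p (at least 44.8-fold), miR-96-5p, miR-122 and miR-143-3p, all described above. Furthest below were miR-486, miR-342, miR-2320-5p, miR-339 and miR-140-3p. miR-140-3p, known from cartilage but widely found in blood, had 944 counts in bile and 38451 in serum, 144-fold lower in bile (135 to 154). miR-2320-5p had 15 against 707 counts and miR-339 10 against 420, so they rest on few bile reads. The 17-92 cluster and its paralogs, miRNAs of dividing and blood-forming cells, summed to 0.316% in bile and 3.78% in serum, and all 7 of their bile members were at least 2-fold lower than in serum, beside the 56.0% of all names. Under every scaling 4 of the 7 stayed so: miR-19a, miR-19b, miR-92a and miR-92b-3p. Their most abundant bile members were miR-92a, with 3474 counts in bile and 15442 in serum, and miR-20a, with 1256 and 1006; the order of miR-20a turned in the RPM.

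Against plasma, 99 bile names were at least 2-fold higher, 34 lower, 23 within 2-fold and 23 unresolved. Over the 213 names listed in either library 46.5% were higher in bile and 30.5% lower, and the median of the 127 shared names was 1.40 on the log2 scale. The split was 47 higher and 63 lower with TMM, 40 and 68 with DESeq2 size factors, and 72 and 47 relative to the median. It was 97 and 36 without the most abundant miRNA in the totals and 99 and 34 in the RPM. Under all scalings 40 names stayed higher and 34 lower. The 40 held 82.9% of the bile counts and included miR-148a-3p, miR-192, miR-21, let-7i, let-7f, let-7g, miR-143-3p and miR-30a-5p. Furthest above plasma were miR-194a, let-7f at 126 times (115 to 138), miR-199b-3p at no less than 109 times, miR-30a-3p at 83.8 times (48.9 to 158) and miR-1. Furthest below were miR-296-3p, from an imprinted locus, with 12 counts in bile and 34789 in plasma (4204-fold, 2407 to 8138), miR-378 with 1246 and 477625 (556-fold), miR-320 with 1261 and 295768 (340-fold), miR-378b-3p with 93 and 18487 (288-fold) and miR-339 with 10 and 1694 (246-fold). miR-378 and miR-378b-3p are closely related and their reads may be split between them.

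Against semen, 78 bile names were at least 2-fold higher, 47 lower, 51 within 2-fold and 3 unresolved, beside 37.5% higher and 29.8% lower over all names listed in either. The median of the 145 shared names was -0.00 on the log2 scale. Without the most abundant miRNA in the totals the split was 58 and 61, and in the RPM it was 62 and 57. Under all scalings 58 stayed higher and 40 lower. Above semen the extremes were miR-122, miR-192, miR-451 (at least 942-fold), miR-199a-3p (863-fold, 482 to 1730) and miR-143-3p. Below were miR-676-3p, 68.2-fold lower in bile on 34 against 3168 counts, miR-10a-3p, 41.5-fold on 16 against 907, miR-339, 36.9-fold on 10 against 504, miR-769-5p, 33.4-fold on 13 against 593, and miR-1307, 26.7-fold on 15 against 547. Among abundant names the miR-10 pair stood out. miR-10a-5p had 6921 counts in bile (0.414%) and 121735 in semen (5.33%), and miR-10b had 3357 (0.201%) and 113734 (4.98%).

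Against urine, the floor left 96 of the 179 names unresolved. Of the rest, 13 were at least 2-fold higher in bile, 36 lower and 34 within 2-fold, beside 7.10% higher and 21.9% lower over the 183 names listed in either. The split was 39 higher and 26 lower with TMM, 21 and 33 with DESeq2 size factors, 26 and 30 relative to the median, and 147 and 0 in the RPM, which divides by a library total of which miRNAs were 0.246% in urine and 15.9% in bile. The 13 stayed higher under every scaling and included miR-122, miR-192, miR-194a, miR-143-3p, miR-199a-3p (8.48-fold, 4.96 to 15.9), miR-100 (4.15-fold, 2.95 to 6.03), miR-101, let-7i and miR-146a-5p. Furthest below urine were miR-363 at 75.4-fold (60.1 to 94.9), miR-10b at 59.8-fold, miR-206 at 41.4-fold, miR-30c-5p at 39.6-fold and miR-204 at 30.3-fold, all turning in the RPM except miR-363.

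**Figure D3:**
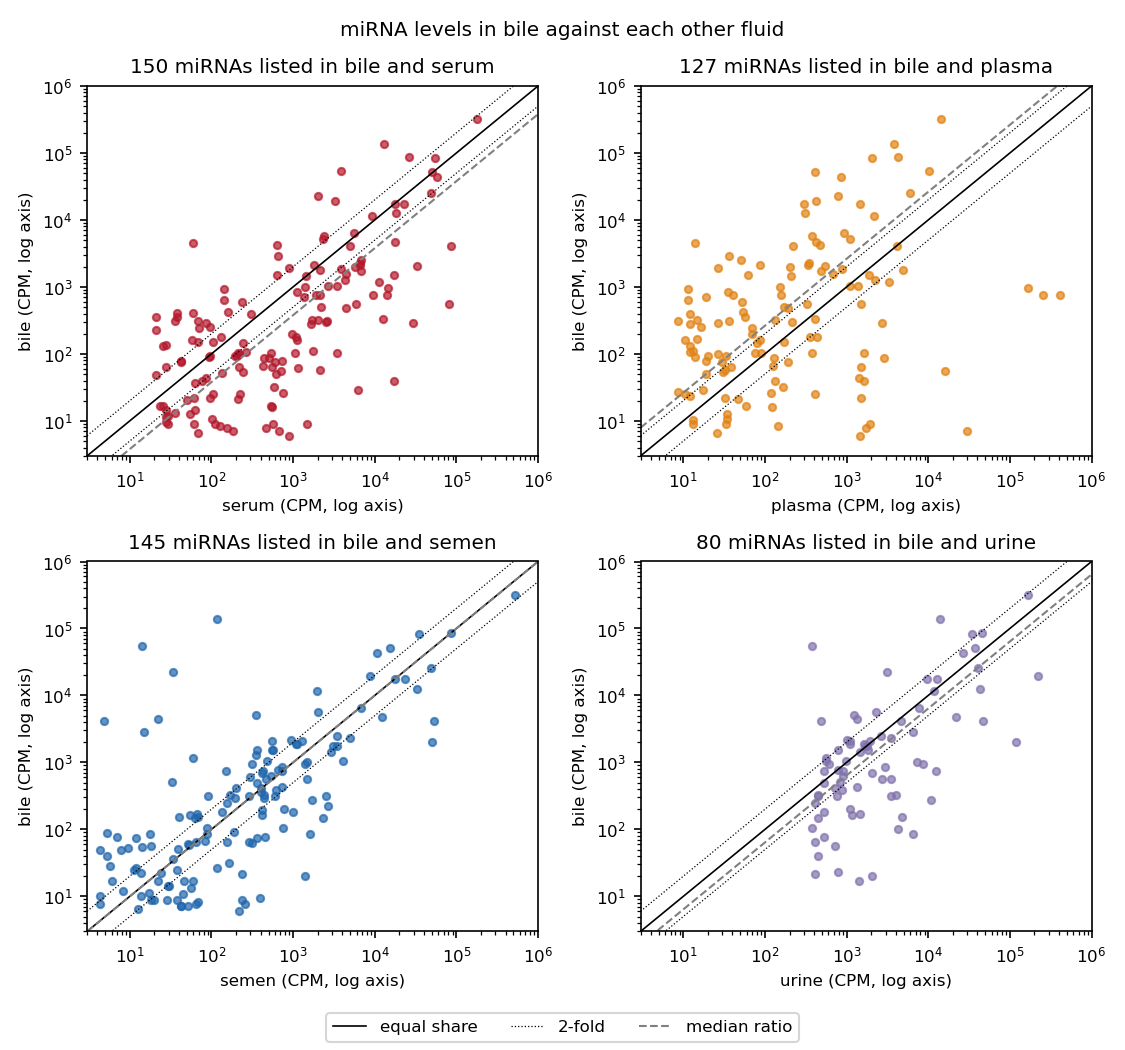
CPM in bile (vertical, log axis) against CPM in each other fluid (horizontal, log axis), with 1 point per miRNA listed in both libraries; the solid line marks equal share, the dotted lines 2-fold and the dashed line the median ratio. The cloud lies mostly below the solid line for serum (median -1.40 on the log2 scale) and mostly above it for plasma (median 1.40), and miR-122, miR-192 and miR-143-3p lie at the upper left of the semen panel.

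Bile was lowest of the 5 fluids for 4 of the 67 names listed in all of them. miR-423-3p had 175 counts in bile (0.0105%), 1622 in serum (0.343%), 1879 in plasma (0.163%), 1740 in semen (0.0762%) and 10 in urine (0.0377%), 3.61-fold below the next lowest fluid. miR-221-3p, a regulator of the cell cycle inhibitor p27, had 0.0180% in bile, 0.109% in serum, 0.0433% in plasma, 0.0994% in semen and 0.0528% in urine, 2.40-fold below the next. miR-500 was 2.18-fold below the next, on 36 bile counts, and miR-22-3p lay 1.01-fold below urine. Against urine these orders turned in the RPM, and that of miR-22-3p turned under each scaling other than its share, against serum too. The neighbour of miR-221-3p on the X chromosome, miR-222, had 521 counts in bile, 32 in serum, 10 in plasma, 654 in semen and 12 in urine. In bile it exceeded its partner with a ratio of 1.73 (1.49 to 1.99), against 0.0621 in serum, 0.0200 in plasma, 0.288 in semen and 0.857 in urine, where 12 and 14 counts gave an interval that overlapped that of bile.

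Names found in bile alone were 7, and they held 0.102% of its counts: miR-199b-3p with 1584, miR-504 with 41, miR-130a with 24, miR-424-5p and miR-885-5p with 18 each, miR-371-5p with 12 and miR-4332 with 11. Except for miR-199b-3p these were near the limit of 10. A further 58 names had counts in another fluid and were listed at 0 in bile: 30 of them were listed in serum, 34 in plasma, 29 in semen and 4 in urine. They held 0.427% of serum, 1.52% of plasma, 0.115% of semen and 0.430% of urine counts. By counts the 5 most abundant were miR-9820-5p with 12740 in plasma, miR-671-5p with 1956 in plasma, miR-34c with 604 in semen, miR-339-5p with 563 in semen and miR-326 with 504 in plasma. By CPM, miR-9820-5p (11042 in plasma) and miR-671-5p (1695 in plasma) again came first. They were followed by miR-196b-5p and miR-1285 (1357 each in urine, from 36 counts) and miR-4331 (1056 in urine, from 28 counts).

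Arm use was examined next, because the proportion of the 5p to the 3p strand of a hairpin, like the ratio of neighbours, is independent of library scaling. Both arms were listed in bile for 25 of 55 hairpins with an arm in bile that the tables name by arm, and 22 of these had both arms in at least 2 other fluids. In 6 the 5p share was above every other fluid that listed both arms, and in 3 it was below. The clearest was miR-361, for which the 5p arm made up 77.1% of reads in bile (71.1 to 82.3; 178 and 53 counts), 35.1% in semen (31.2 to 39.2), 31.5% in serum (27.0 to 36.3) and 6.76% in plasma (3.75 to 11.1). The major arm in bile was therefore the minor arm in the 3 other fluids. For miR-145 the direction was opposite: 44.6% in bile (39.7 to 49.7), 89.4% in serum (82.2 to 94.4) and 86.0% in plasma (77.6 to 92.1).

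For miR-374a the 5p share was 84.0% in bile (81.3 to 86.5), 47.4% in serum (31.0 to 64.2), 47.4% in semen (45.2 to 49.7) and 57.6% in urine (39.2 to 74.5). For miR-664 it was 86.3% in bile (79.6 to 91.4), 58.8% in serum (40.7 to 75.4) and 58.7% in semen (43.2 to 73.0), while plasma listed only the 5p arm, with 34 counts. These 2 hairpins leaned to the 5p arm in bile. miR-331 leaned to the 3p arm, with 40.6% in bile (23.7 to 59.4) on 13 and 19 counts, against 84.9% in serum and 78.9% in semen. The blood-cell miRNA miR-142, whose 2 arms are both abundant in leukocytes, had 86.4% in bile (80.9 to 90.9), 66.0% in serum (62.5 to 69.4) and 42.4% in plasma (36.2 to 48.9). miR-22 also had its highest 5p share in bile, with 9.25% (8.27 to 10.3), against 5.82% in serum, 6.77% in plasma and 3.74% in semen. The minor 5p arm of endothelial miR-126 was 15.3% in bile (13.1 to 17.8), 2.05% in serum, 6.75% in plasma and 1.41% in semen. The minor 5p arm of miR-148a was 0.0270% in bile (0.0228 to 0.0318), against 0.243% in serum, 16.8% in plasma and 0.305% in semen. By contrast miR-30a kept to a narrow range, from 95.4% in bile to 97.4% in plasma.

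**Figure D4:**
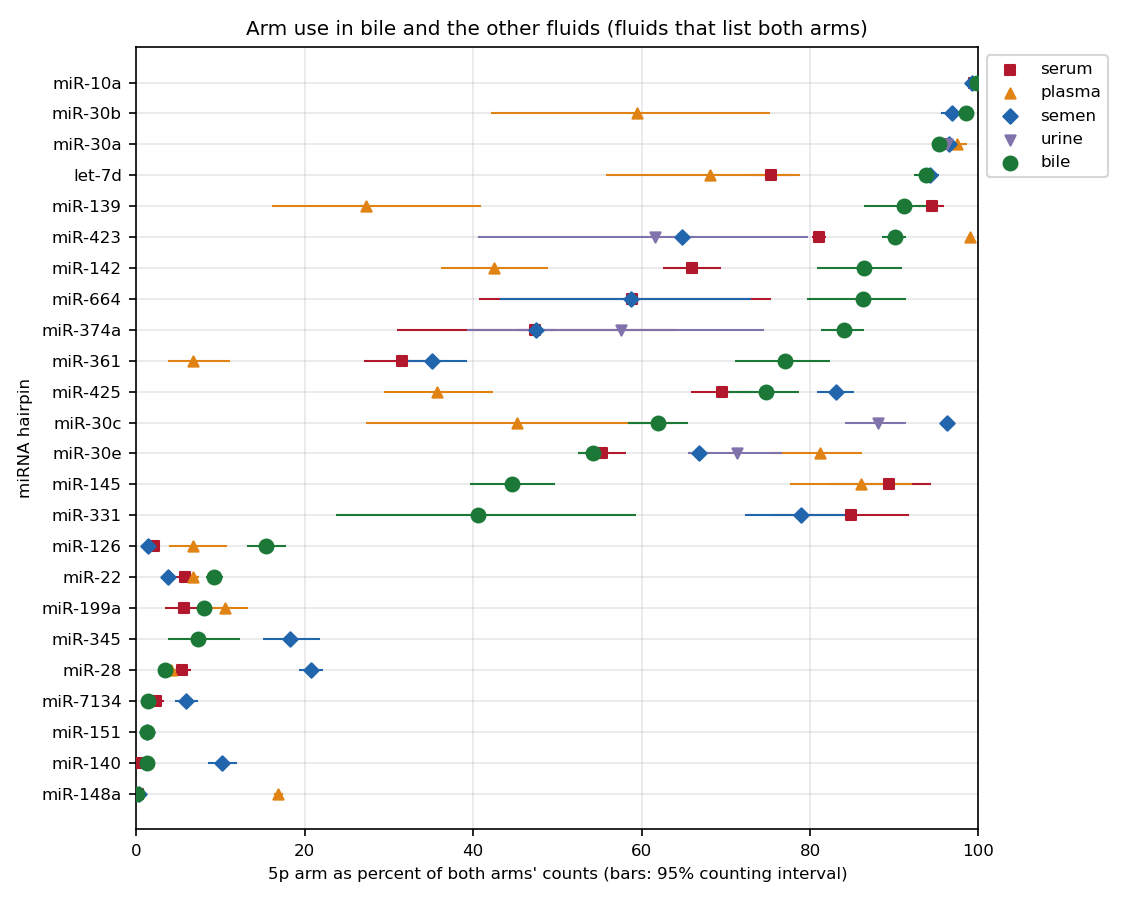
The 5p arm as a percent of both arms' counts (linear axis) for 24 hairpins listed by both arms in bile and at least 1 other fluid, with 1 point per fluid and bars for the 95% counting interval. Among fluids that list both arms, bile stands to the right for miR-361, miR-374a, miR-664 and miR-142, and to the left for miR-145 and miR-331.

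Ratios between 15 pairs of neighbouring miRNA genes, which are usually made from a shared transcript, were compared in the same way. In 13 pairs both names were listed in bile and in another fluid. In 3 of these the bile ratio was above that of each other fluid that listed both names, with intervals that did not overlap: miR-143-3p to miR-145-5p, miR-27a to miR-23a and miR-199a-5p to miR-214. In 3 it was below: miR-215 to miR-194b-5p, miR-99a to let-7c and miR-30d to miR-30b-5p. miR-27a exceeded miR-23a 4.67-fold in bile (4.26 to 5.13), against 2.13 in semen (1.89 to 2.41), 1.75 in urine (0.822 to 3.90), 1.66 in plasma (1.48 to 1.87) and 0.356 in serum (0.338 to 0.374). The paralogous pair miR-27b-3p and miR-23b gave 35.7 in bile, 5.41 in serum, 147 in plasma, 4.37 in semen and 2.95 in urine, so plasma was higher there.

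miR-199a-5p exceeded miR-214 by 3.95 in bile (3.30 to 4.75), whereas in serum it was 0.188 of it (0.107 to 0.312). Plasma listed only miR-199a-5p, with 65 counts and a ratio of at least 6.50, so bile was above serum but not above plasma for this pair. miR-99a to let-7c was 1.44 in bile (1.42 to 1.47), 2.14 in serum, 4.08 in plasma, 2.81 in semen and 4.19 in urine, a narrower range. miR-30d to miR-30b-5p was 6.74 in bile (6.33 to 7.17), 13.1 in serum, 21.9 in plasma, 29.2 in semen and 10.6 in urine (8.05 to 14.3). The erythroid pair miR-451 and miR-144 lay between fluids, with 328 in bile (215 to 531), 1543 in serum and 119 in plasma. miR-192 to miR-194a was 30.9 in bile (30.2 to 31.6), again between the 221 of serum and 274 of plasma and the 5.27 of semen and 10.3 of urine.

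**Figure D5:**
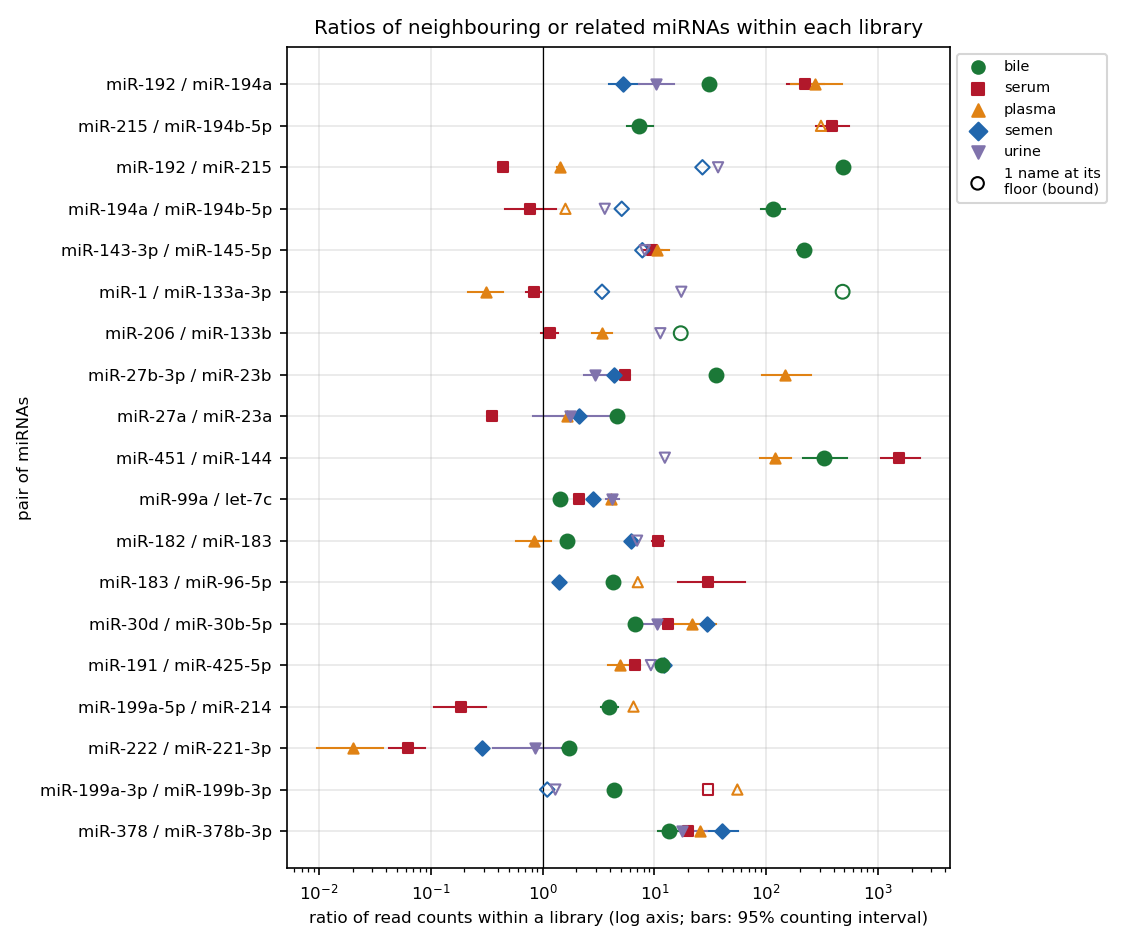
Ratio of read counts within each library (log axis) for 15 pairs of neighbouring miRNAs and 4 pairs of related sequence, with bars for the 95% counting interval; open symbols mark a bound where 1 of the names is listed at 0. Bile lies at 483 for miR-192 to miR-215 and 217 for miR-143-3p to miR-145-5p, to the right of the closed symbols of the other fluids.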

How the data were processed

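Exosomal small RNA was sequenced from 5 fluids, with 1 library each. Exosomes were isolated with a commercial reagent and RNA with Trizol, per the labels' protocols; small RNA was gel-purified, ligated to adaptors, amplified and sequenced. The authors deposited a read count per miRNA name and a normalized column whose values are RPM against a library total larger than the miRNA sum. The submitters' processing notes name bcl2fastq 2.17 and build Sscrofa10.2. Not given in the sources used here are the read aligner, the annotation release and how multiply matching reads were counted. The labels and the series description name different Illumina instruments.

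Counts were divided by each library's miRNA sum (percent, CPM). Intervals were exact Clopper-Pearson for shares and exact conditional binomial for ratios, at the 95% level (SciPy 1.17.1), with a floor of 10 counts. A difference was called at 2-fold, unless the floor prevented it. Depth ran from 26522 to 2284926 counts. Ratios were recomputed with edgeR 4.0.16 TMM, DESeq2 1.42.0 size factors, the authors' RPM and totals that leave out each library's top miRNA; ratios relative to the median ratio, and summed miR-199a-3p and miR-199b-3p, were added after the data were seen. Computation was tested on simulated data.

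Named miRNAs were the 20 most abundant in bile, the 10 with the largest ratio to the next fluid (100 or more bile counts), the 5 furthest above and below each fluid, the 5 most abundant names not listed in bile, names in bile alone, the 2 most abundant of each list, the 5 largest families and the 5 hairpins with the largest arm difference. Other names were chosen after their values were seen. The members and lists were chosen with earlier results of these data known. Families and neighbour pairs were written after the counts were seen, and the neighbour limit of 20 kb was raised from 10 kb so as to hold miR-1 and miR-133a. Neighbours came from the RefSeq annotation of Sscrofa11.1, used for names and adjacency only; 140 of 154 hairpin names matched. No sequences were read.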

Additional observations from a re-analysis of the deposited data

How the results depend on the processing

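No paired analysis was possible because each fluid has 1 library, and for the same reason no replicate could be left out in turn. Of 78 recomputed counts of miRNAs, 57 stayed within 1.5 times their reported value and 21 moved. Above serum (42 reported) the count was 77 in the RPM and 68 relative to the median ratio; below serum (87) it was 43 and 52, and 51 with at least 100 counts required, which tests fewer names. Above plasma (99) it was 47 with TMM and 40 with DESeq2 size factors; below plasma (34) it was 63 and 68, and 14 at 100 counts. Below semen (47) it was 24 at 100 counts. Above urine (13) it was 39 with TMM, 21 with DESeq2 size factors, 147 in the RPM and 26 relative to the median; below urine (36) it was 0 in the RPM. Names highest in bile (15) were 26 with TMM, 57 in the RPM and 41 without the urine library; those at least 2-fold above the next fluid (9) were 28 in the RPM and 23 without urine. With miR-199a-3p and miR-199b-3p summed, these 2 counts were 14 and 8. Where scaling moved a count, the change follows from the shift it gives to all names alike; for plasma this was -2.37 (TMM) and -2.73 (DESeq2) on the log2 scale. Of 60 recomputed single ratios, 51 kept their direction and their side of 2-fold, 6 fell below 2-fold and 3 reversed. The reversed ones, on the log2 scale against the next fluid, were miR-122 at -0.31 with DESeq2 size factors (2.41 reported) and miR-100 at -0.16 with TMM and -0.51 with DESeq2 size factors (1.16 reported). Those that fell below 2-fold were miR-199a-3p at 0.74 with TMM and 0.39 with DESeq2, miR-122 at 0.04 with TMM, miR-101 at 0.97 and miR-183 at 0.89 without the most abundant miRNA, and miR-183 marginally in the RPM. Thinned to the depth of urine, bile listed 61 names, serum 91, plasma 50 and semen 60, beside 84 in urine, so depth sets much of what can be listed.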
